A study of Mus musculus with 7 samples.

Results

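Peg12, Magel2, Ndn, Peg3, Mest, Plagl1, Grb10, Nnat, Meg3 and Dlk1, 10 imprinted genes among the 50600 entries of the bulk count table, were followed in cultured neural stem and progenitor cells (NSPCs) of the adult mouse dentate gyrus (DG). They were picked by name after their levels in these cultures and in whole DG tissue had been seen, so their comparison with whole DG is a description and carries no test. The comparison of female with male cultures was not used to pick them and was tested.

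Imprinted genes are transcribed mainly from a single parental allele, which is set by DNA methylation laid down in the egg or the sperm. They lie in small clusters around a methylated control region, and members of a cluster are often silenced on opposite parental alleles. Several of them act on growth and on the fetal brain, and some are known to lose their allele bias or to change their level in cultured stem cells.

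Bulk RNA sequencing covered 4 primary cultures from C57Bl6J mice aged 6 to 8 weeks, at passages 6 to 15, grown on a poly-d-lysine and laminin surface in neurobasal A medium with B27 (free of vitamin A), glutaMAX, epidermal growth factor and basic fibroblast growth factor at 20 ng/ml each. The cultures F1 and F2 came from females and M1 and M2 from males. Whole DG of 2 C57Bl6J mice aged 7 to 9 weeks, 1 female (F1) and 1 male (M2), gave the comparison. A droplet-based single-cell library held an equal mixture of 3 cultures, 2 female and 1 male, from mice aged 6 to 9 weeks. The labels name no transgene, deletion or drug in any group. All mice were of 1 inbred strain, so the parental alleles cannot be told apart and every value is the sum of both. Passage is given only as a range, and the library kit differed between cultures and tissue, so kit and group cannot be told apart. The labels give an RNA integrity number of 10 for every culture and above 8 for whole DG.

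Counts per library summed to between 9917697 and 11747408 in cultures and to 16676618 and 17351636 in whole DG. Levels are counts per 1000000 (CPM) scaled with TMM factors, and n is 4 cultures and 2 whole DG libraries throughout. Of 7 NSPC markers 5 rose in the cultures (edgeR adjusted p under 0.05) and 2 fell, Sox2 among them, and their summed level was 5309 to 5764 CPM in cultures against 750 to 786 CPM in whole DG. The 6 granule neuron markers, all detected in cultures, summed to 34.3 to 44.7 CPM in cultures against 8332 to 8841 CPM in whole DG. Most of the culture sum was Prox1 (26.4 to 32.6 CPM), and the others had culture means from 1.01 (Rbfox3) to 2.59 CPM (Snap25). The 4 astrocyte markers summed to 231 to 704 CPM against 801 to 830 CPM, but they went different ways. Aldh1l1 rose from a mean of 49.2 to 288 CPM (edgeR adjusted p = 0.00922) and Gja1 did not pass (0.612). Gfap and Aqp4 fell from 425 to 2.2 CPM and from 150 to 0.69 CPM. Whole DG mixes neurons, glia and vascular cells, so that fewer cells of a type and less RNA per cell cannot be told apart in any bulk difference given here, and the part of cell composition in it was not tested.

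The described genes split into some with all 4 cultures above whole DG and more with all 4 below. Cultures lay above both whole DG libraries for Peg12 and Mest, and below both for Magel2, Ndn, Peg3, Plagl1, Grb10, Meg3 and Dlk1, while Nnat overlapped. Over all 18088 genes that passed the filter on low counts, cultures lay above in 38.6% and below in 45%, and nothing is read from the counts of 2 and 7 since the genes were picked on these values. All of the described genes except Dlk1 passed that filter, 9 of 10.

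**Figure D1:**
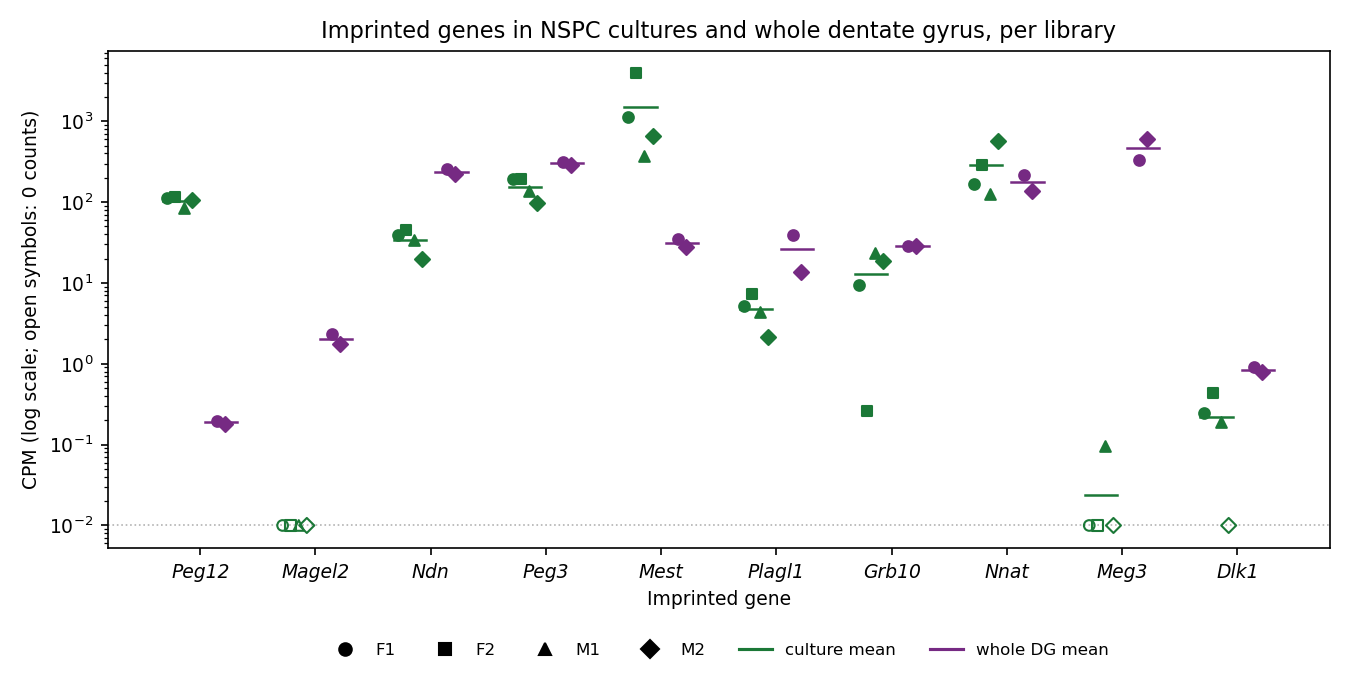
CPM (log scale) of the 10 imprinted genes in each culture (green) and each whole DG library (purple), with a horizontal line at the group mean and open symbols for 0 counts. Peg12 and Mest sit above whole DG in all 4 cultures, Magel2 and Meg3 sit at 0 counts or 1 count, and Mest and Grb10 spread widely among the cultures.

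RefSeq promoter windows (250 bases before to 50 after each annotated start, GRCm38.p6) were found for all 10 genes, 14 windows in all. They were searched on both strands for TGCCGC (reverse complement GCGGCA), the core of the methylated motif bound by ZFP57, a zinc finger protein that keeps imprints after fertilisation. The letters occurred in 6 windows of 5 genes (Mest, Plagl1, Grb10, Nnat and Meg3), and in 11.6% of 32851 promoter windows of the same length. The Mest windows at chr6:30737800-30738099 and chr6:30737803-30738102 overlap almost fully and hold the same matches, so they are not separate cases. The letters include a CpG, and most windows of the 10 genes held more CpG than the median of 7 over all promoter windows. Nothing is therefore read from the comparison with 11.6%. The 250 bases before the start are shown for the 2 genes whose cultures lay above whole DG and for the 2 at or near 0 counts in cultures, with matches in capitals. A match is a description of the letters, and methylation was not measured.
Peg12: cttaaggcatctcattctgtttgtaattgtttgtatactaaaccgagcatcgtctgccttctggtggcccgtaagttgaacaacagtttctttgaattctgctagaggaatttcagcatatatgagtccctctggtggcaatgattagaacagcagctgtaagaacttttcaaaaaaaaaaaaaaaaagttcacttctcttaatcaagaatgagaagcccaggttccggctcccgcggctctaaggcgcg
Magel2: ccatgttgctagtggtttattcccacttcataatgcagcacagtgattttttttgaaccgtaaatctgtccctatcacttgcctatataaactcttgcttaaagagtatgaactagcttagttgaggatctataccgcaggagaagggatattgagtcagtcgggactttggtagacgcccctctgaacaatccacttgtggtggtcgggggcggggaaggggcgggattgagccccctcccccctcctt
Mest: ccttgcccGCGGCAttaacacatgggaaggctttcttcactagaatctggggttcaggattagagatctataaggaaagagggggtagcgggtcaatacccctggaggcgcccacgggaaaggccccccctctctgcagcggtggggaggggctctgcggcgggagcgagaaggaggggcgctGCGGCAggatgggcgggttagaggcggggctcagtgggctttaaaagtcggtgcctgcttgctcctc
Meg3: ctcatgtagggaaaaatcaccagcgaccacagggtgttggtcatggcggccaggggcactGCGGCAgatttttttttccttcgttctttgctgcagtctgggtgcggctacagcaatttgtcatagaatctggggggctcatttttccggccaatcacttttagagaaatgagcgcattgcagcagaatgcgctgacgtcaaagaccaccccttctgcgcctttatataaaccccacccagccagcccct
The Peg12 bases lie at chr7:62464511-62464760 (minus strand) and hold 8 CpG dinucleotides and no match. Those of Magel2 lie at chr7:62376729-62376978 (plus strand) with 7 CpG and no match. Those of Mest precede the second of its 3 listed starts, at chr6:30737800-30738049 (plus strand), with 14 CpG and 2 matches. Those of Meg3 precede the first of its 2 listed starts, at chr12:109540746-109540995 (plus strand), with 10 CpG and 1 match. The windows of the first start of Mest and of the second start of Meg3 held no match, so for both genes a start with a match is shown. None of these 4 stretches overlaps an exon annotated in GENCODE M21. Over the full windows, CpG dinucleotides numbered from 1 (the second start of Meg3) to 45 (the second start of Grb10), against a median of 7 over all promoter windows.

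In the Prader-Willi/Angelman domain of chromosome 7, genes that are expressed from the paternal allele stood on both sides of whole DG. Peg12 (Frat3), an intronless relative of the Frat proteins that bind the kinase GSK3, lies at chr7:62461871-62464510. It was at 112, 116, 83.7 and 105 CPM in cultures F1, F2, M1 and M2, and at 0.194 and 0.183 CPM in whole DG, where each library held 3 counts. All 4 cultures were far above the tissue and close to one another. The ratio of pooled levels was 558.5 (95% counting interval 256 to 1523), and the fitted log2 difference of 9.04 (SE 0.30) ranked 17 among the rises of 18088 tested genes.

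Ndn encodes necdin, a MAGE family protein that restrains cell division and supports neuronal survival, and lies at chr7:62346569-62350262. Its level was 39.2, 45.0, 33.9 and 19.5 CPM in cultures F1, F2, M1 and M2, against 253 and 223 CPM in whole DG. The groups did not overlap, and whole DG was 6.93-fold higher (log2 difference -2.79, SE 0.27). Magel2, a MAGE protein that regulates ubiquitin ligases in endosomal sorting, lies between them at chr7:62377010-62381640. It had 0 counts in each of the 4 cultures and 36 and 29 counts, or 2.32 and 1.76 CPM, in whole DG. With the cultures set to 3 counts in all, the smallest sum taken as detectable, it was at least 30.1-fold lower there.

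The other genes of that domain were tested. The ring finger gene Mkrn3 rose from 1.13 ± 0.136 to 5.65 ± 0.836 CPM (mean ± SD; log2 difference 2.31, edgeR adjusted p = 0.000266). Snrpn, which encodes a splicing protein of neurons, fell from 821 ± 54.6 to 67.4 ± 5.56 CPM, and Snurf, read from the same transcript, fell from 263 ± 8.83 to 15.6 ± 3.04 CPM (log2 differences -3.61 and -4.08, edgeR adjusted p = 1.53e-07 and 3.55e-07). Snrpn and Snurf share exons, so the split of reads between them is uncertain. Ube3a, a ubiquitin ligase gene that is imprinted only in neurons, was at 170 ± 13.4 CPM in cultures and 144 ± 21.5 CPM in whole DG (log2 difference 0.24, edgeR adjusted p = 0.145). With trends of gene length and GC content removed, the difference of Ube3a was 1.58 (edgeR adjusted p = 2.52e-05), and with upper quartile scaling 0.42 (adjusted p = 0.0219).

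Relatives of these genes that are not known to be imprinted differed among themselves. Frat1 and Frat2, the relatives of Peg12, fell from 21.6 ± 0.333 to 1.98 ± 0.367 CPM and from 13.9 ± 0.675 to 0.267 ± 0.180 CPM (log2 differences -3.44 and -5.64, edgeR adjusted p = 3.83e-06 and 1.80e-05). Of 4 MAGE relatives of Magel2 and Ndn, 3 rose and 1 fell. Maged1, the most abundant, rose from 668 ± 5.34 to 1697 ± 166 CPM, Maged2 and Mageh1 rose by log2 differences of 2.06 and 2.44, and Magee1 changed by -1.37 (edgeR adjusted p between 2.09e-06 and 6.53e-05).

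Mest was the most abundant of the described genes in the cultures. It encodes a membrane protein of the endoplasmic reticulum with a hydrolase fold, is expressed from the paternal allele and lies at chr6:30723547-30748465. Cultures F1, F2, M1 and M2 held 1128, 3912, 369 and 649 CPM, and whole DG 34.5 and 27.6 CPM. The lowest culture was above both tissue libraries, but the cultures themselves were far apart, with F2 highest. The log2 difference was 5.61 with an SE of 1.10, the widest error among the 9 genes fitted, and without culture F2 it was 4.53.

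Copg2, which encodes a subunit of the coatomer of Golgi transport vesicles, lies on the opposite strand and overlaps Mest by 912 exonic bases. Copg2 was at 459, 1266, 218 and 275 CPM in cultures F1, F2, M1 and M2 and at 111 and 94.4 CPM in whole DG, so its order among cultures was that of Mest. It rose (log2 difference 2.44, SE 0.72, edgeR adjusted p = 0.0139), a call that was lost without whole DG F1 (adjusted p = 0.0694), without whole DG M2 (0.0878) and without the filter on low counts (0.118). Whether the deposited counting used strand is not stated in the labels, so reads of Mest and Copg2 in the overlap may have been mixed. Only the library kit of whole DG is named as directional, so such mixing may differ between cultures and tissue. The part of Mest reads in the rise of Copg2 was not tested. The ratio of Mest to Copg2 was 1.69 to 3.09 in the cultures and 0.292 and 0.312 in whole DG. In the single-cell library, whose protocol reads 3' ends, 389 Mest UMIs per 1000000 UMIs (UPM) stood beside 19.2 of Copg2, a ratio of 20.2 against 2.73 for the mean bulk levels of cultures. Klf14, also listed for that domain, had 0 counts in cultures and 4 in whole DG and was not tested.

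In the Dlk1-Dio3 domain of chromosome 12 the transcripts were at or near 0 counts in the cultures. Meg3, a noncoding RNA expressed from the maternal allele, lies at chr12:109541001-109571726 and shares 1228 exonic bases with an unnamed model on the opposite strand. It had 1 count in culture M1 and 0 in the other 3, against 5129 and 9860 counts, or 331 and 600 CPM, in whole DG. Whole DG stood above the cultures by a pooled ratio of 20820 (95% counting interval 3736 to 822400). Dlk1, a transmembrane protein with EGF-like repeats that is expressed from the paternal allele, lies at chr12:109452823-109463336. It had 3, 5, 2 and 0 counts in cultures F1, F2, M1 and M2 against 14 and 13 counts in whole DG. Its levels were low in both groups, 0 to 0.434 CPM and 0.904 and 0.791 CPM, with a pooled ratio of 0.267 (counting interval 0.115 to 0.568) of cultures to whole DG.

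Of 4 other genes listed for that domain, 3 were tested and all 3 fell. Rian and Mirg, noncoding hosts of small nucleolar RNAs and of miRNAs downstream of Meg3, had 2 counts and 1 count over all cultures against 3715 and 283 counts in whole DG (ratios of whole DG to cultures 2580, interval 714 to 21310, and 393, interval 70.0 to 15580). Dio3, which encodes a deiodinase that inactivates thyroid hormone, had 0 counts in cultures and 195 in whole DG, at least 90.3-fold lower (edgeR adjusted p = 0.000326). Rtl1, a retrotransposon-derived gene, had 0 counts in cultures and 42 in whole DG and was not tested. Dlk2, the relative of Dlk1 on another chromosome, fell from 21.7 ± 2.63 to 0.238 ± 0.204 CPM (log2 difference -6.41, edgeR adjusted p = 8.19e-06).

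Peg3 and Plagl1 encode zinc finger transcription factors expressed from the paternal allele. Peg3, at chr7:6703892-6730431, was at 190, 192, 139 and 97.8 CPM in cultures F1, F2, M1 and M2 and at 317 and 286 CPM in whole DG. All cultures lay below the tissue, M2 lowest, and whole DG was 1.95-fold higher (log2 difference -0.96, SE 0.25). With trends of gene length and GC content removed the difference was -0.44. Its domain neighbours Usp29, a ubiquitin protease, and Zim1, another zinc finger gene, fell from 40.1 ± 2.31 to 1.22 ± 0.773 CPM and from 11.6 ± 2.08 to 0.753 ± 0.326 CPM (32.8-fold and 15.4-fold, edgeR adjusted p = 9.66e-06 and 1.98e-05). Zfp264, also listed for that domain, had 0 counts in cultures and 1 in whole DG and was not tested.

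Plagl1 (Zac1), a regulator of a network of imprinted growth genes, lies at chr10:13060504-13131694. It was at 5.12, 7.20, 4.40 and 2.15 CPM in cultures F1, F2, M1 and M2 and at 39.1 and 13.8 CPM in whole DG. The groups did not overlap, but the tissue libraries were far apart from each other. The log2 difference was -2.48 (SE 0.48), and it was -1.55 without whole DG F1 and -3.05 without whole DG M2. Its relative Plag1 had 0 counts in cultures and 62 in whole DG, at least 28.7-fold lower (edgeR adjusted p = 0.000742). Plagl2 was at 8.26 ± 2.65 CPM in cultures and 10.8 ± 1.30 CPM in whole DG (log2 difference -0.39, edgeR adjusted p = 0.289).

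Grb10, an adaptor that dampens insulin and growth factor receptor signals, is expressed from the maternal allele in most tissues and from the paternal allele in neurons. It lies at chr11:11930508-12038683. Culture F1 held 9.34 CPM, F2 0.260 CPM (3 counts), M1 23.8 CPM and M2 18.4 CPM, against 28.5 and 28.7 CPM in whole DG. Every culture was below the tissue, and F2, the culture with the most Mest, was almost without Grb10 reads. The log2 difference of -1.15 had an SE of 0.91. Its neighbour Ddc, the enzyme that makes dopamine and serotonin from their precursors, fell from 3.57 ± 1.26 to 0.974 ± 0.726 CPM (log2 difference -1.85, edgeR adjusted p = 0.0284). That call was lost without whole DG F1 (adjusted p = 0.213) and without whole DG M2 (0.0610). Grb14, a relative of Grb10, fell from 33.7 ± 0.130 to 11.1 ± 2.07 CPM (log2 difference -1.61, edgeR adjusted p = 0.000122), and Grb7 was not tested.

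Nnat encodes neuronatin, a small membrane protein of the endoplasmic reticulum in developing neurons, and lies inside an intron of Blcap at chr2:157560078-157562522. It was at 166, 287, 127 and 569 CPM in cultures F1, F2, M1 and M2 and at 216 and 135 CPM in whole DG. This is the only one of the 10 genes whose groups overlapped: 2 cultures were above both tissue libraries, F1 lay between them and M1 was below both. The log2 difference of 0.71 (SE 0.56) lay between 0.15 (without culture M2) and 1.10 over the alternatives. Blcap, the host gene, was at 93.9 ± 23.7 CPM in cultures and 93.3 ± 8.05 CPM in whole DG (log2 difference 0.01, edgeR adjusted p = 0.973), and it lay on either side of 0 over the alternatives.

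The remaining imprinted genes of a list drawn from textbook knowledge were then set beside these. Allele bias was not measured, so whether a listed gene is imprinted in these cells or in whole DG is not known. Of 53 other imprinted genes 38 were tested, 12 rose, 19 fell and 7 did not pass (edgeR adjusted p under 0.05), or 31.6% higher and 50% lower. Over all tested genes 35.6% were called higher and 41.7% lower, 77.3% in all. Calls counted above among markers, relatives and neighbours stand beside the same shares. The median log2 difference of the 38 was -1.46 against -0.13 over all tested genes. In the domains of the described genes 12 of 15 neighbours were tested, 2 rose, 8 fell and 2 did not pass, with a median of -3.77. In other domains 26 of 38 were tested, 10 rose, 11 fell and 5 did not pass, with a median of -0.31. The neighbours were entered through genes picked on this same contrast, and Snurf with Snrpn and Copg2 with Mest share exons. They also belong to the tested genes behind the median of -1.46, so nothing is read from these medians.

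Among called genes outside these domains with at least 5 CPM in the higher group, the 3 largest falls were Rasgrf1, Zdbf2 and Kcnk9 and the 3 largest rises Cd81, Tssc4 and Nap1l4. Rasgrf1, an exchange factor for Ras in neurons, had 3 counts in cultures and 27279 in whole DG, a ratio of 12630 (interval 4321 to 61250). Zdbf2 had 1 count against 749, and the potassium channel gene Kcnk9 2 counts against 477. Cd81, a tetraspanin of the cell surface in the Igf2-H19/Kcnq1 region, rose from 174 ± 3.70 to 1572 ± 197 CPM, and its neighbours Tssc4 and Nap1l4 rose by log2 differences of 2.48 and 1.66 (edgeR adjusted p between 1.19e-06 and 1.59e-05).

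**Figure D2:**
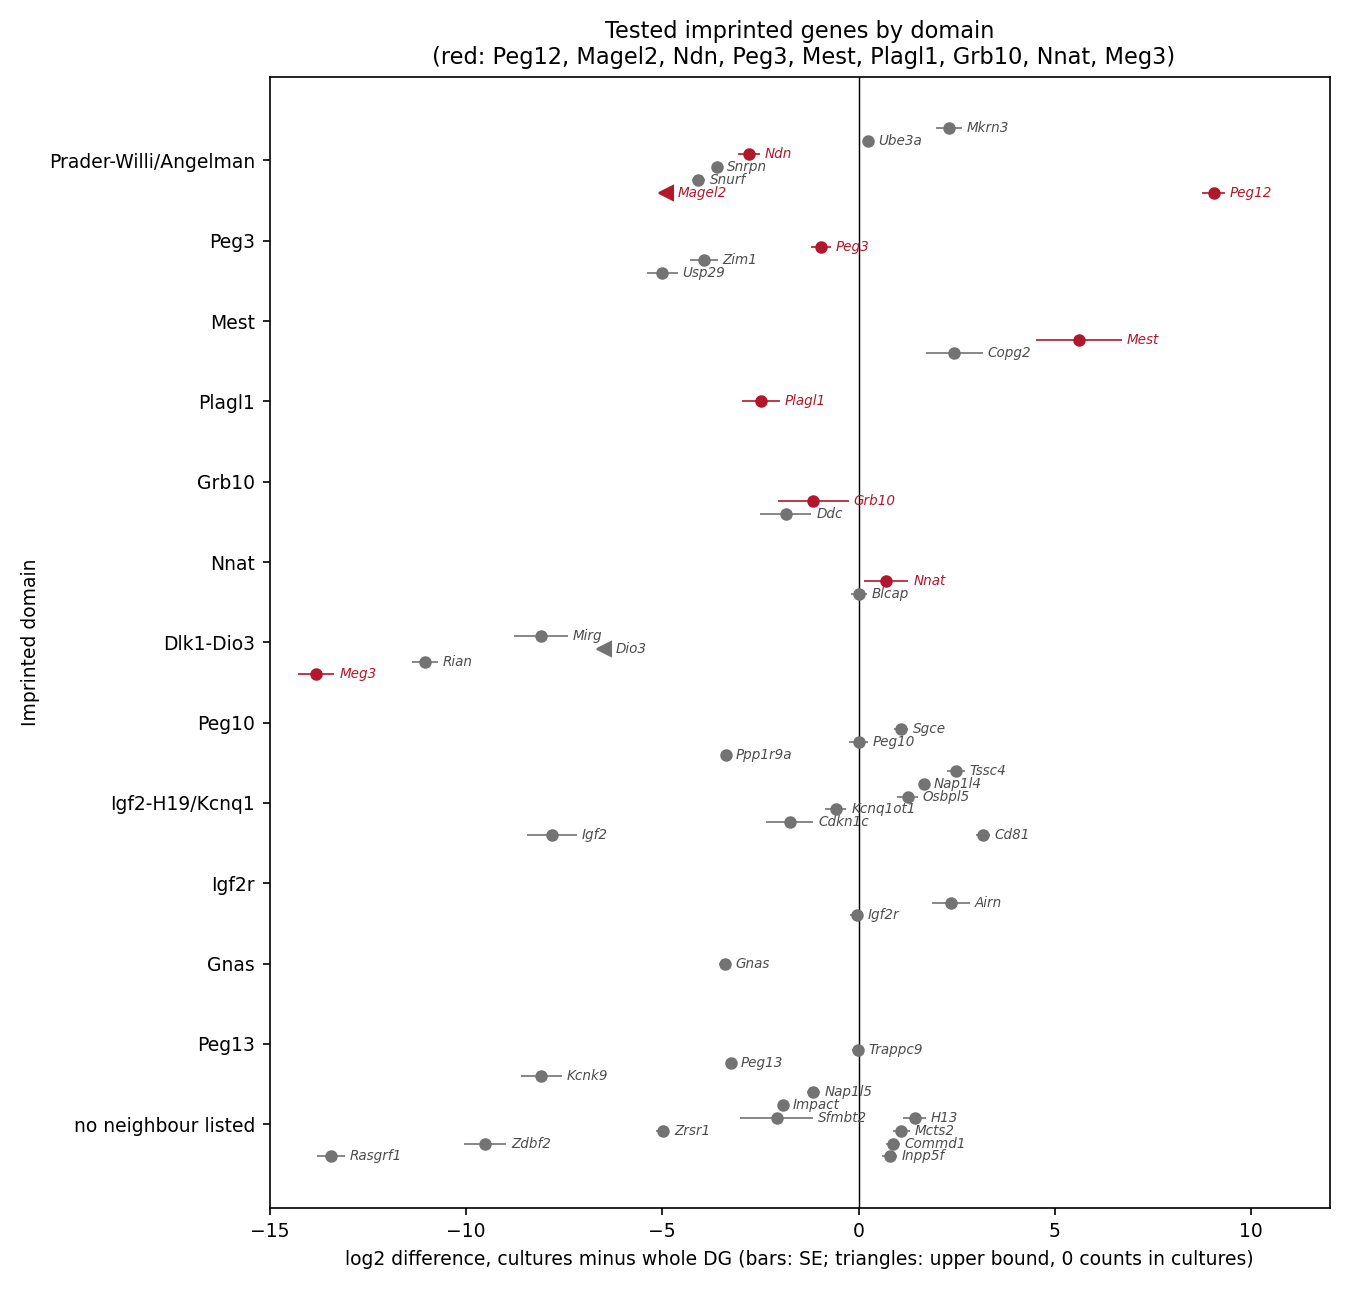
Fitted log2 difference of cultures minus whole DG (bars, SE) for each imprinted gene that passed the low-count filter, by domain, with the described genes in red and triangles at the upper bound for genes with 0 counts in cultures. Peg12 (9.04) and Mkrn3 (2.31) stand right of their neighbours Ndn (-2.79) and Snrpn (-3.61), and the Dlk1-Dio3 genes stand far left. Fitted values of genes with 1 to 3 counts, such as Meg3, depend on the prior count.

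Proteins that keep imprints through cell division were also listed. Of 7 such genes 6 were tested, 2 rose and 4 fell. Over all tested genes 35.6% were called higher and 41.7% lower, and nothing is read from the counts of 2 and 4. Dnmt1, the maintenance methyltransferase, rose from 71.8 ± 5.84 to 285 ± 52.1 CPM, and Uhrf1, which brings it to replicating DNA, from 1.09 ± 0.353 to 226 ± 41.5 CPM (log2 differences 1.99 and 7.68, edgeR adjusted p = 3.69e-05 and 3.57e-07). Both are also known as genes of dividing cells. Zfp57 and Zfp445, zinc finger proteins that bind imprinted control regions, fell from 9.15 ± 2.45 to 1.75 ± 0.687 CPM and from 178 ± 5.99 to 72.7 ± 6.92 CPM (log2 differences -2.39 and -1.29). Their partner Trim28 fell by 1.29 on the log2 scale, a call lost with length and GC trends removed (adjusted p = 0.0761), and Ctcf, an insulator protein, by 1.64 (edgeR adjusted p between 2.17e-05 and 0.000503 for these 4).

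Per kilobase of annotated exon, levels in the cultures ran from Mest (384 CPM per kb) through Nnat (157), Peg12 (39.5), Peg3 (11.6), Ndn (9.31) and Grb10 (1.43) to Plagl1 (0.603). Dlk1 (0.0386), Meg3 (0.00132) and Magel2 (0) were lower still, on too few counts to be ordered among themselves. Mest was above Nnat in 3 of 4 cultures and Grb10 above Plagl1 in 3 of 4. The ranges of Peg3 and Ndn over the cultures overlapped, although Peg3 was higher in each. The steps from Nnat to Peg12, from Peg12 to Peg3, from Ndn to Grb10 and from Plagl1 to Dlk1 were free of overlap.

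The cultures differed among themselves most in Grb10 and Mest. The highest culture exceeded the lowest 91.5-fold for Grb10 and 10.6-fold for Mest, and only 0.0408% and 1.19% of 14691 genes with a count in every culture and a mean of at least 1 CPM had a larger ratio. The ratio was 4.48 for Nnat, 3.35 for Plagl1, 2.31 for Ndn, 1.96 for Peg3 and 1.39 for Peg12, beside a median of 1.5 and a 90th percentile of 3 over those genes. F2 was the highest culture for Mest, Plagl1, Ndn, Peg3 and Peg12 and the lowest for Grb10. For Peg3 (192 CPM in F2, 190 in F1) and Peg12 (116 and 112 CPM) it was close to F1. M2 was the lowest for Ndn, Peg3 and Plagl1 and the highest for Nnat. The summed astrocyte markers also varied, with 350, 704, 599 and 231 CPM in F1, F2, M1 and M2. Most of that variation lay in Aldh1l1, at 177, 493, 403 and 79.0 CPM. The part of the astrocyte markers in the differences among cultures was not tested.

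Female and male cultures were compared with edgeR over 15140 genes, of which 4 (0.0264%) passed an adjusted p of 0.05, namely Xist, Eif2s3y, Uty and Ddx3y. None of the 7 described genes with enough counts passed by edgeR or by DESeq2, and 2 of 7 had an unadjusted p under 0.05, as did 6.22% of all genes tested. Mest was at 2520 CPM on average in the 2 female and 509 CPM in the 2 male cultures (log2 difference 2.30, SE 0.62, edgeR adjusted p = 0.746), and both females were above both males. Peg3 was at 191 against 118 CPM (log2 difference 0.68, SE 0.20, edgeR adjusted p = 0.746), again without overlap. Grb10 went the other way, 4.80 against 21.1 CPM (log2 difference -2.14, SE 1.12, edgeR adjusted p = 0.820), with both females below both males.

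Without culture F1, a fit in which the lone female F2 is assumed to vary as the males do, Mest differed by 2.93 (edgeR adjusted p = 0.00688) and Grb10 by -6.29 (adjusted p = 0.00014). Those calls rest on F2, since without F2 the differences were 1.14 and -1.18 (adjusted p = 0.944 and 1). Adjusted p-values over all alternatives ran from 0.00688 to 0.944 for Mest and from 0.00014 to 1 for Grb10. For Peg3 they ran from 0.0331, without the filter on low counts, to 1. Ndn (log2 difference 0.65), Plagl1 (0.90), Peg12 (0.27) and Nnat (-0.63) had edgeR adjusted p-values from 0.801 to 0.909. Of 30 other imprinted genes tested, none passed by edgeR or DESeq2, and 2 had an unadjusted p under 0.05: Copg2 (862.5 CPM in females against 246.5 CPM in males) and Sfmbt2 (log2 difference -4.24), both at an edgeR adjusted p of 0.746 and singled out after their values were seen.

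**Figure D3:**
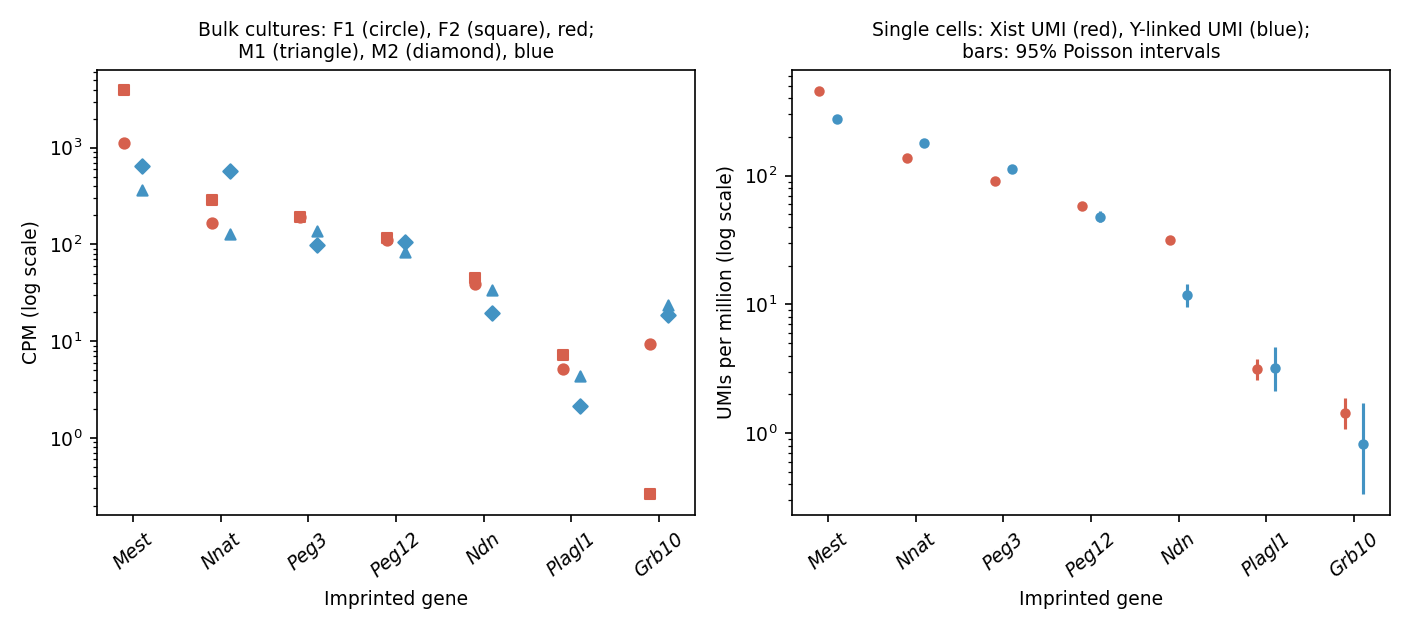
Left, CPM (log scale) of 7 imprinted genes in the female cultures F1 and F2 (red) and the male cultures M1 and M2 (blue). Right, UMIs per 1000000 UMIs (UPM, log scale) in single cells with an Xist UMI (red) or a Y-linked UMI (blue) and not the other, with 95% Poisson intervals. Mest is higher on the female side in both panels (2520 against 509 CPM, and 453 against 278 UPM), while Peg3 is higher on the female side in bulk and on the male side in single cells.

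The single-cell table held 14912 cells in the authors' 6 clusters, with 2001 to 8531 unique molecular identifiers (UMIs) per cell and no repeated barcode. Magel2 and Meg3 are not among the 15536 genes of that table and were described in bulk only. Mest UMIs were found in 66.5% of cells (95% interval 65.8% to 67.3%) at 389 UPM, which ranked 343 among 15536 genes. Nnat followed with 41.0% of cells and 157 UPM, Peg3 with 29.9% and 97.4, Peg12 with 19.8% and 54.8, and Ndn with 9.68% and 25.2. Plagl1, Grb10 and Dlk1 were found in 1.24%, 0.577% and 0.0604% of cells, the last on 9 UMIs. No cell class that should lack these genes was defined in the library, so the share that free RNA gives was not measured.

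The 3' UMI levels need no correction for length, and the order of the 8 genes was that of the bulk levels per kilobase except that Peg3 stood above Peg12 and that Plagl1 (3.01 UPM, 95% Poisson interval 2.60 to 3.48) stood above Grb10 (1.38, 1.10 to 1.70). Of the Prader-Willi/Angelman neighbours, Snrpn held 34.8 UPM, Ube3a 137 and Mkrn3 3.22. Blcap held 23.9 beside 157 of its inner gene Nnat.

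Mest was spread over the cells. Of all cells 40.1% held at least 2 Mest UMIs, 7.65% at least 5 and 0.436% at least 10, and the highest cell held 17. After thinning each cell to 2000 UMIs, 47.0% held at least 1 and 19.2% at least 2. Cells with 5 or more Mest UMIs had a median depth of 4824 UMIs against 3721 for cells without one, and 80.5% and 46.3% of them held an Xist UMI.

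Levels across the clusters are described with counting intervals only, since the clusters were made from these cells in 1 library. Cluster 5 (1092 cells) was lowest for Peg3, Mest, Nnat and Peg12, with and without thinning. Peg3 ran from 49.0 UPM there (95% Poisson interval 42.8 to 55.9) to 124 (119 to 130) in cluster 2, a ratio of 2.54, and thinning gave the same order of these clusters with a ratio of 2.43. Nnat ran from 77.9 (70.0 to 86.4) to 171 (162 to 180) in cluster 3, with the other 4 clusters between 150.0 and 169, and its ratio of 2.20 was 1.92 after thinning.

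Mest ran from 292 (277 to 308) to 450 (435 to 465) UPM in cluster 3, a ratio of 1.54 with and without thinning. Peg12 ran from 40.3 (34.6 to 46.5) to 63.3 (57.7 to 69.3) in cluster 4, while after thinning cluster 1 was highest. Ndn ran from 22.1 to 29.0, with overlapping intervals. Plagl1 was highest in cluster 2 at 5.42 (4.32 to 6.71) and lowest in cluster 5 at 1.75 (0.756 to 3.45), on 84 and 8 UMIs, while after thinning cluster 4 was lowest. The median ratio of highest to lowest cluster was 1.36 over 4659 genes found in at least 10% of cells. Clusters differed in depth, with median UMIs from 3431 (cluster 1) to 5270.5 (cluster 4).

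**Figure D4:**
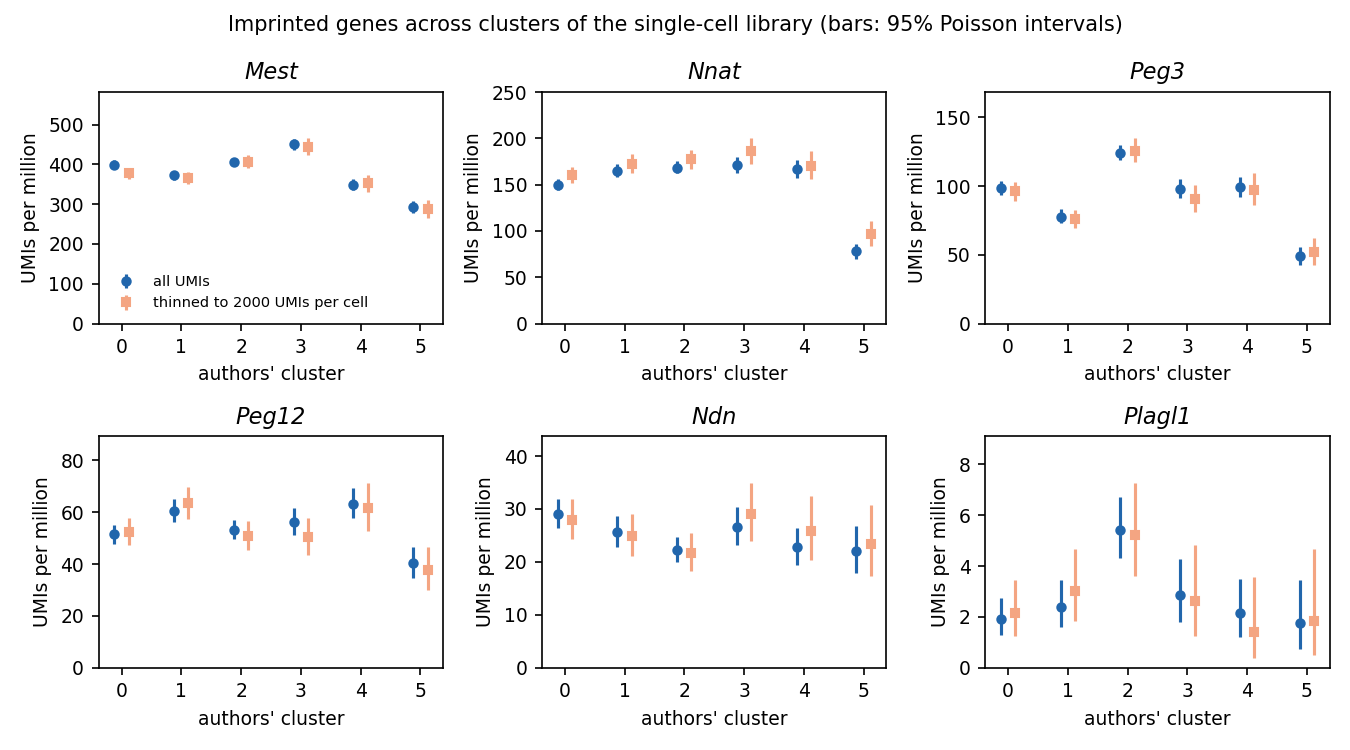
UMIs per 1000000 UMIs (UPM) of 6 imprinted genes in the authors' clusters 0 to 5, over all UMIs (blue) and after thinning each cell to 2000 UMIs (orange), with 95% Poisson intervals that cover counting error only. Cluster 5 is lowest for Mest, Nnat, Peg3 and Peg12 on both scales, and Peg3 and Plagl1 peak in cluster 2.

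Cells were also divided by the X-inactivation RNA Xist and by 4 Y-linked genes (Ddx3y, Eif2s3y, Kdm5d and Uty), an alternative added after the data had been seen. Of all cells 8391 held an Xist UMI and no Y-linked UMI, 2063 the reverse, 312 both and 4146 neither, with median depths of 4264, 3948, 4797.5 and 3650.5 UMIs. Mest stood at 453 (446 to 460) UPM in cells with Xist and 278 (267 to 289) in cells with a Y-linked UMI, and Ndn at 31.7 (29.9 to 33.6) and 11.8 (9.55 to 14.3). Nnat and Peg3 stood the other way, at 138 (134 to 142) against 180 (171 to 189) and at 91.2 (88.1 to 94.3) against 113 (106 to 120). Peg12 stood at 57.7 and 48.0. The Y-linked cells come from 1 male culture, so sex and culture cannot be told apart there, and no test was made. Mean bulk levels were higher in the same sex for Mest, Ndn, Nnat and Peg12 and in the other sex for Peg3. For Nnat the bulk log2 difference of female minus male cultures turned from -0.63 to 0.82 without culture M2. Plagl1 had a higher bulk mean in female cultures (6.16 against 3.27 CPM). In single cells it stood at 3.156 (2.61 to 3.79) UPM with Xist and 3.205 (2.11 to 4.66) with a Y-linked UMI, with overlapping intervals. Grb10, whose mean bulk level was lower in the female cultures, stood at 1.44 (1.08 to 1.89) UPM in cells with Xist and 0.831 (0.334 to 1.71) in cells with a Y-linked UMI, with overlapping intervals on 53 and 7 UMIs.

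Over single cells the correlations between the described genes were weak, and sparse counts can hold such values near 0. Pearson's r of log values over 14912 cells lay between -0.053 (Mest and Nnat) and 0.052 (Peg12 and Mest) over all pairs, all from 1 library with shared depth. The genes most like Mest were Xist (r 0.173), Mt3 (0.159) and Fth1 (0.147). Those most like Nnat were Ppp1r14b (0.128), Ptma (0.108) and H2afz (0.106), and those most like Peg3 were Ptprz1 (0.092), Hist1h2ap (0.086) and Pclaf (0.084). At such sparse counts these weak values are given as a description.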

How the data were processed

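The authors deposited raw gene counts for 4 culture and 2 whole DG libraries, 1 whole number per gene, and natural log values of 1 plus UMIs per 10000 for the single-cell library, whose cell names begin with the cluster. The tools named in the submitters' processing notes are CASAVA 1.8.2, HISAT2 2.0.6, Subread, featureCounts, Cell Ranger 3.1.0 and Seurat 3.1.0. The same notes name the human build GRCh38, while the symbols are those of mouse genes. How featureCounts treated strand is stated nowhere in the labels. Per the labels' protocols, culture libraries were made with the SMART-Seq HT kit and whole DG libraries with the NEBNext Ultra II Directional kit, and paired ends were read. Genes were placed by symbol on GENCODE M21 (GRCm38), which also gave exon lengths.

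The main test of counts was that of edgeR 4.0.16 under R 4.3.3 (quasi-likelihood, robust, TMM, its default filter on low counts, Benjamini-Hochberg over all genes tested, threshold 0.05), with group or, in the 4 cultures, sex as the only term. DESeq2 1.42.0 was an alternative. Cultures are separate per the labels, and p-values reflect how far cultures, or the 2 mice, differ within a group. Ratios on few counts have exact 95% counting intervals, and a group at 0 counts was set to a floor of 3 counts over the group. Such intervals and floors cover counting error only.

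UMI counts were recovered from the deposited natural log values, 100% of entries within 0.01 of a whole number. Levels have exact Poisson and shares exact Clopper-Pearson intervals. Each cell was also thinned to 2000 UMIs, which left out 0 cells. No doublet caller was run and no cell filter was added. Scripts were tested on simulated data.

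The genes described, the lists and the tests were chosen with earlier results of these data known. The text names the 10 genes, every listed gene of their domains, their paralogs, the 3 largest rises and falls called among the other imprinted genes with at least 5 CPM in the higher group, and for the 3 genes with the most UMIs the 3 genes most like each, among genes found in at least 10% of cells. Genes named beyond this were chosen after their values were seen, except the listed imprint maintenance genes and markers. Scaling, filter, tool, length and GC correction, left-out libraries, the replicate block and thinning were varied.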

Additional observations from a re-analysis of the deposited data

Results flagged for a closer look

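In 60 genes of the imprinted, paralog and imprint maintenance lists, the level of each of the 4 cultures was compared with the others, and in 5 genes 1 culture stood far from the rest (Dixon's test, which flags about 1 in 20 groups by chance). Of the 10 described genes, Magel2 and Meg3 had too few counts to be compared, and none of the rest was among those flagged. Levels were compared as CPM without logs, and Grb10 and Mest were not flagged despite their 91.5-fold and 10.6-fold ranges. Zim1, the neighbour of Peg3, was at 1.24 CPM in M1 with the nearest culture at 0.607 CPM, and Asb4, a gene of the Peg10 domain, was at 1.13 CPM in F2 with the nearest at 0.165 CPM. Impact was at 56.6 CPM in M1 with the nearest at 49.5 CPM. Frat2, a relative of Peg12, was at 0 CPM in M1 with the nearest at 0.331 CPM, and Zfp445 was at 62.4 CPM in M2 with the nearest at 74.8 CPM. The calls of Zim1, Frat2 and Zfp445 between cultures and whole DG were kept without M1 and without M2.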

How the results depend on the processing

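The log2 differences of Peg12, Ndn, Peg3, Mest, Plagl1, Grb10 and Nnat between cultures and whole DG kept their sign under all 98 alternatives, and 96 moved by less than the spread between replicates. The exceptions were Peg12 (9.39) and Peg3 (-0.44) with length and GC trends removed. Asking for a fold above 2 left 3671 of 6440 rises over all genes and 7 of 12 rises of other imprinted genes. Without 1 library each, rises over all genes numbered 5143 to 6418 and falls 6672 to 7620, and other imprinted genes 11 to 12 and 17 to 20. Upper quartile scaling shifted the median of all tested genes by 0.18 and the stricter filter by 0.17. Between sexes the count of 4 became 60 by DESeq2, 273 without the filter on low counts and 3 to 81 without 1 culture each (81 without F1, 13 without F2). Nnat between sexes turned from -0.63 to 0.82 without M2 and ran from -1.35 to 0.82 without 1 culture each. Sfmbt2 between sexes passed without the filter (-4.25, edgeR adjusted p = 0.0166) and Copg2 without F1 (2.35, adjusted p = 0.00014). Of 500 alternatives over 34 neighbours, paralogs and other named genes, 483 kept the call. The others include Blcap, which lay at or below 0 under 7 alternatives, at -0.09 with DESeq2 size factors, with the DESeq2 test and with length and GC trends removed, 0 without the filter, -0.18 with the stricter filter and without M2, and -0.08 without whole DG M2 (-0.18 to 0.11 without 1 library each). Ddc also lost its call for a fold above 2 (adjusted p = 0.0947) and in 4 libraries without the block (0.0521). The causes were not tested. Replicate names shared by cultures and whole DG gave correlations of deviations of 0.042 and 0.054, and numbers shared by the sexes 0.063 and 0.063, so they were not taken as pairs. With the replicate block in the 4 libraries named F1 or M2, 6098 genes rose and 7579 fell, and 12 and 20 of the other imprinted genes. The same 4 libraries without the block, a fit added after seeing the data, gave 6433 and 7855, and 12 and 19. With the block between sexes 4 genes passed. Of 144 cluster levels recomputed, 131 stayed within their counting interval. Magel2, Meg3 and Dlk1 had 0 to 5 counts in each culture, too few to compare these genes with one another there.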
